A study of Mus musculus with 4 samples.

Results

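The 10 MHC class I presentation genes described here were H2-K1, H2-D1, H2-Q7, B2m, Tap1, Tap2, Tapbp, Psmb8, Psmb9 and Nlrc5, picked by gene symbol from the 32285 genes of 4 droplet single-cell RNA libraries (10x Genomics) of mouse liver. All 10 symbols had 1 row each. The libraries were 2 of genotype Cyr61 KO and 2 of genotype Control, from male mice aged 24 weeks that had been on a NASH diet for 12 weeks, feed given to produce steatohepatitis. Both groups carry a floxed Cyr61 allele (strain Cyr61fl/fl). Cyr61 is a secreted matrix-associated protein. The labels name no Cre driver, no deleted cell type and no genetic background beyond the floxed allele, and they do not say whether a library held 1 mouse or several.

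MHC class I molecules show peptides from inside a cell to CD8 T cells, and NK cells read their presence as a sign of a healthy cell. The proteasome cuts proteins, and its interferon-inducible subunits Psmb8 and Psmb9 replace constitutive ones and change which peptides are made. The transporter Tap1-Tap2 moves peptides into the endoplasmic reticulum, where tapasin (Tapbp) holds empty heavy chains beside it until a peptide fits. The heavy chain then leaves for the cell surface with the light chain, beta-2 microglobulin (B2m). H2-K1 and H2-D1 encode classical heavy chains and H2-Q7 a non-classical one (Qa-2). Nlrc5 is the transactivator of class I promoters, the counterpart of Ciita for class II. In inflamed liver, class I is carried both by the liver's own cells and by the lymphoid and myeloid cells that enter it.

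Of the 10 genes, 8 lie in the MHC region of chromosome 17 (GRCm38, GENCODE M21). They are all annotated as protein-coding. Tapbp (ENSMUSG00000024308) spans 33915899 to 33929292 on the plus strand, H2-K1 (ENSMUSG00000061232) 33996017 to 34000347 on the minus strand, and H2-D1 (ENSMUSG00000073411) 35262730 to 35267499 on the plus strand. H2-Q7 (ENSMUSG00000060550) spans 35439155 to 35443773 on the plus strand. A block of 4 holds Psmb9 (ENSMUSG00000096727) at 34181987 to 34187764 on the minus strand, Tap1 (ENSMUSG00000037321) at 34187553 to 34197225, Psmb8 (ENSMUSG00000024338) at 34197721 to 34201454 and Tap2 (ENSMUSG00000024339) at 34203527 to 34216321, all 3 on the plus strand. B2m (ENSMUSG00000060802) lies on chromosome 2, 122147686 to 122153083, and Nlrc5 (ENSMUSG00000074151) on chromosome 8, 94434356 to 94527272, both on the plus strand.

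The promoters of the heavy chains and of B2m are printed because these genes are known to share a regulatory layout, while their levels below did not run in parallel. RefSeq (GRCm38.p6) promoter windows, from 250 bases before to 50 bases after each start, were matched for 8 of the 10 genes. Each line runs 5′ to 3′ on the gene's strand. Capitals mark matches to a kappaB motif of 11 letters (GGGGAT followed by TCCCC) or its first 10, TTTCACTT (an interferon response core), a pair of GAAA with any 2 bases between (an interferon response element), TGACG (the core of the X2 box that class I promoters are known for) and CCAAT or its reverse complement ATTGG (the Y box), searched on both strands. The stretch lies at chr17:34000354-34000468 (minus strand) for H2-K1, chr17:35262913-35263027 (plus) for H2-D1, chr17:35439012-35439124 (plus) for H2-Q7 and chr2:122147538-122147643 (plus) for B2m.
H2-K1: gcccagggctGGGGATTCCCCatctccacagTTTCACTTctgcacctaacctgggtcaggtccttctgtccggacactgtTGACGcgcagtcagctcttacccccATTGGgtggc
H2-D1: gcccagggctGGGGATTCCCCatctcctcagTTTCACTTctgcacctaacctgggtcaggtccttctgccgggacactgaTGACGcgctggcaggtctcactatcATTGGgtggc
H2-Q7: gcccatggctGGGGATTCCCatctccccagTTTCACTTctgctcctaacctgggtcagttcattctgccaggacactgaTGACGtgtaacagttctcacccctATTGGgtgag
B2m: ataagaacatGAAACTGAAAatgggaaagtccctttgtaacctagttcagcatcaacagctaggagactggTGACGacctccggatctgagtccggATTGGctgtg

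The 3 heavy chains held the motifs in the same order, kappaB site, interferon core, TGACG and ATTGG. H2-K1 and H2-D1 held the kappaB site with 11 letters, and H2-Q7 held its first 10. The 11-letter form was found in 0.0304% and the 10-letter form in 0.107% of the 32851 promoter windows of the table. TTTCACTT was in 1.6% of them, the GAAA pair in 3.44%, TGACG in 20.8% and CCAAT in 37.4%. The 10-letter form lies within the 11-letter one, so that each 11-letter match is counted under both. B2m held the GAAA pair, TGACG and ATTGG in its stretch.

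Tap1 and Psmb9 are shown as 1 stretch because they start back to back, 225 bases apart by their RefSeq starts (chr17:34187331-34187555, plus strand, Psmb9 start on the left and Tap1 start on the right). The stretch held 1 CCAAT and 1 TGACG, and neither kappaB form nor either interferon motif in these letters.
Tap1 and Psmb9: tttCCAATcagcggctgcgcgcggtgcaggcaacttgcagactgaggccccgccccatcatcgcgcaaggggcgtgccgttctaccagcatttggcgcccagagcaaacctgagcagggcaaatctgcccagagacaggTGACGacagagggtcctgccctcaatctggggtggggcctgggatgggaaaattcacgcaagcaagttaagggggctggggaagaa

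The files held 7241 and 5373 barcodes in Cyr61 KO libraries 1 and 2 and 4852 and 7253 in Control libraries 1 and 2. Transcript counts, as UMIs (molecular barcodes that count a captured molecule once), summed to 17187561 and 17925516 in KO and 8290677 and 20537236 in Control. The targeted gene, listed as Ccn1, had 0 and 12 UMIs in KO and 184 and 149 in Control. After quality filters and removal of likely doublets, 22771 cells were left, with median UMIs per cell of 1848 and 2813 in KO and 1203 and 2202 in Control. A cell was given a class from markers that hold none of the 10 genes, and 16738 cells received one. Pairs of libraries shared 6 to 22 cell barcodes. The chi-squared per degree of freedom was 17.7 between the KO libraries and 39.9 between the Control libraries, so that both pairs differed by more than sampling noise.

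Of 10 marker gates, 5 had at least 20 cells in every library and were tested. These were T cells (2156 and 1927 cells in KO, 1430 and 2613 in Control), NK cells or innate lymphoid cells (NK or ILC; 345 and 347, against 115 and 189), B cells (2236 and 1523, against 480 and 1575), monocytes or macrophages (170 and 109, against 278 and 300) and neutrophils (67 and 49, against 93 and 149). The shares of cells with each marker follow in part from the gates, which used these markers, and do not check them. The most frequent own marker was Cd3d in 82.3% of T cells, Klre1 in 82.8% of NK or ILC and Cd79a in 94.5% of B cells. It was Csf1r in 79.1% of monocytes or macrophages and Retnlg in 88.3% of neutrophils. The most frequent marker of another class was Klre1 in 10.1% of T cells, Cd28 in 17.7% of NK or ILC, Cd3d in 3.1% of B cells, Csf3r in 22.1% of monocytes or macrophages and Csf1r in 12.0% of neutrophils. UMIs were summed per class and library and are given as CPM, that is, scaled to the same total in every sum. Differences are log2 values with their standard error (SE) from edgeR's quasi-likelihood test, called at an adjusted p (Benjamini-Hochberg over all genes tested) below 0.05.

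**Figure D1:**
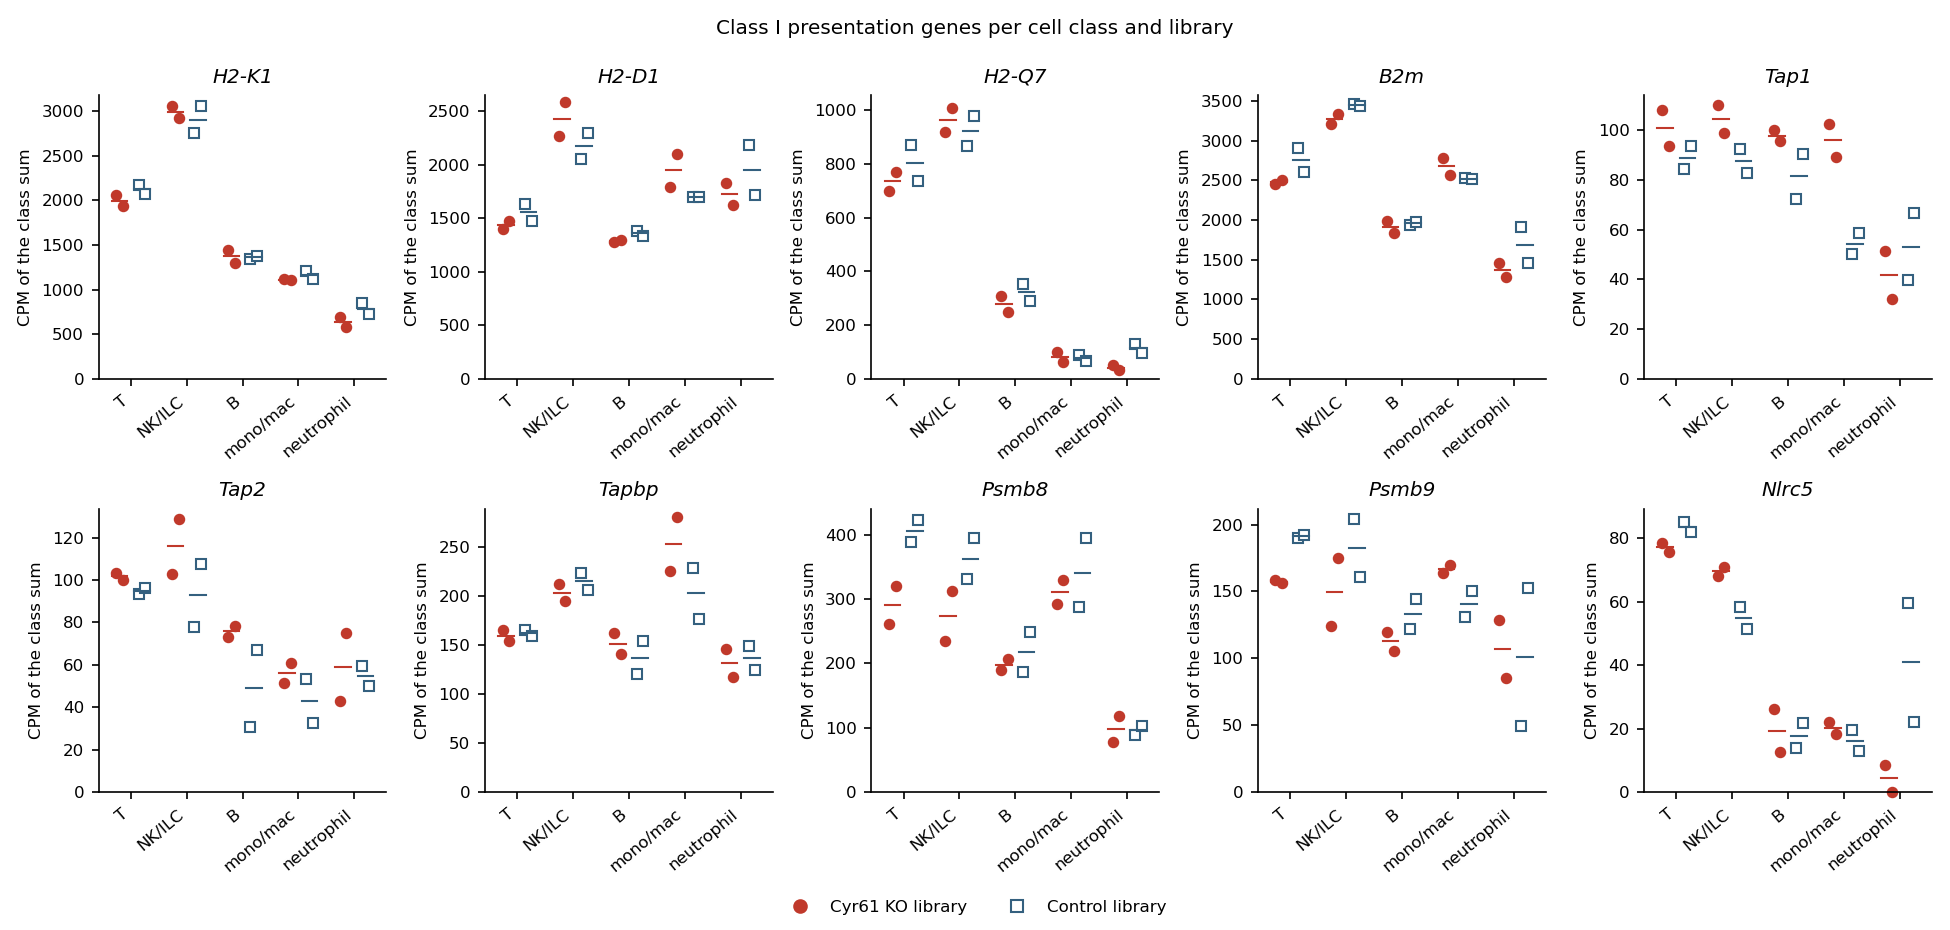
CPM of the 10 genes (1 panel each, linear axis from 0) in the class sums of T cells, NK or ILC, B cells, monocytes or macrophages and neutrophils. Filled circles are the 2 Cyr61 KO libraries and open squares the 2 Control libraries, with a line at each group's mean. H2-K1 and H2-Q7 are higher in T cells and NK or ILC than in the other classes, H2-D1 in neutrophils lies above H2-D1 in B cells, and Nlrc5 is higher in T cells and NK or ILC than in B cells and monocytes or macrophages.

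The first question was which liver cell classes carried these transcripts, over all 4 libraries. H2-K1 was highest in NK or ILC, with 3056 and 2926 CPM in KO and 2757 and 3055 CPM in Control. T cells had 2058 and 1942 CPM in KO and 2176 and 2078 CPM in Control. The level was lowest in neutrophils, at 694 and 577 CPM in KO and 853 and 724 CPM in Control. The 4 libraries of NK or ILC thus all lay above those of every other tested class, and those of neutrophils below. Against the mean of the other 4 classes H2-K1 was higher in NK or ILC (log2 0.97 ± 0.09, adjusted p = 1.54e-10) and in T cells (0.65 ± 0.09, adjusted p = 2.54e-07). It was lower in monocytes or macrophages (-0.47 ± 0.10) and in neutrophils (-1.05 ± 0.11, adjusted p = 1.76e-09). Along this order, the step between NK or ILC and T cells was not called, while each of the next steps, T over B cells, B cells over monocytes or macrophages and monocytes or macrophages over neutrophils, was. Between pairs of classes, of all 8236 genes, 12.4% were higher and 11.2% lower in T cells than in NK or ILC, 27.1% and 27.2% in T than in B cells, 33.1% and 31.4% in T cells than in monocytes or macrophages, and 33.3% and 23.8% in T cells than in neutrophils. For NK or ILC these shares were 21.8% and 25.1% against B cells, 25.1% and 27.9% against monocytes or macrophages and 30.6% and 22.6% against neutrophils. They were 33.5% and 32.3% for B cells against monocytes or macrophages, 32.7% and 22.9% for B cells against neutrophils and 27.2% and 18.7% for monocytes or macrophages against neutrophils.

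H2-D1, the other classical heavy chain, did not follow that order. Neutrophils held 1824 and 1625 CPM in KO and 2182 and 1714 CPM in Control, and B cells 1276 and 1298 CPM in KO and 1379 and 1337 CPM in Control. NK or ILC again had the highest mean CPM, 2299 ± 217 over the 4 libraries (SD). In the edgeR fit, however, the estimate for NK or ILC over neutrophils was slightly negative (log2 -0.10 ± 0.12). No step between neighbours in the order of H2-D1 levels (NK or ILC, neutrophils, monocytes or macrophages, T cells, B cells) was called. Against the mean of the other classes it was lower in B cells (log2 -0.44 ± 0.10). Smaller differences were called in neutrophils (0.36 ± 0.10), NK or ILC (0.23 ± 0.09) and T cells (-0.23 ± 0.09), but those 3 calls did not pass in several alternative settings, for example without Cyr61 KO library 1, where the values were 0.20, 0.26 and -0.07.

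The balance of both classical heavy chains changed from class to class. H2-K1 made up 58.0 ± 1.2% of H2-K1 plus H2-D1 UMIs in T cells, 56.2 ± 2.1% in NK or ILC, 50.8 ± 1.6% in B cells, 38.6 ± 3.1% in monocytes or macrophages and 27.9 ± 1.4% in neutrophils (SD over 4 libraries). In neutrophils the share was 27.6% and 26.2% in KO and 28.1% and 29.7% in Control, with exact binomial 95% intervals that all reached at most 33.5%. In T cells it was 59.6% and 56.9% in KO and 57.1% and 58.5% in Control. The libraries of these 2 classes stood far apart, with no overlap. The share compares classes and not the genes' absolute levels, since the capture of 2 transcripts can differ.

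H2-Q7 differed most between classes. It had 698 and 771 CPM in T cells of KO and 870 and 736 CPM in those of Control, and 918 and 1006 CPM in NK or ILC of KO and 866 and 979 CPM in those of Control. Monocytes or macrophages held 101 and 64.4 CPM in KO and 88.9 and 66.0 CPM in Control. B cells lay between, at 309 and 247 CPM in KO and 353 and 290 CPM in Control, so that the classes fell into 3 separate levels. Against the mean of the other classes it was higher in T cells (log2 1.91 ± 0.12, adjusted p = 1.20e-14) and NK or ILC (1.96 ± 0.12, adjusted p = 2.33e-14), and lower in monocytes or macrophages (-2.24 ± 0.16, adjusted p = 5.22e-13) and neutrophils (-1.82 ± 0.21, adjusted p = 1.79e-08). As a share of H2-Q7 plus H2-D1 UMIs it made up 34.0 ± 0.7% in T cells and 4.27 ± 1.10% in monocytes or macrophages (SD, 4 libraries).

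Reads of class I genes can be shared between near-identical copies, so these values were set beside the genes' sequence overlap. The last 500 bases of the longest coding transcript were used, near the end that 3′ droplet libraries read. There, 0.443% of the 50-base words of H2-K1 also occur in another gene, 9.53% of those of H2-D1 and 6.21% of those of H2-Q7. For the Qa-2 neighbours H2-Q4 and H2-Q6 the shares were 33.7% and 35.9%, and their counts are less certain. Only exact words were matched, so copies that differ within a word were not counted as shared. Class I alleles also differ between mouse strains, and the counts rest on the mm10 reference whatever the alleles of these mice.

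**Figure D2:**
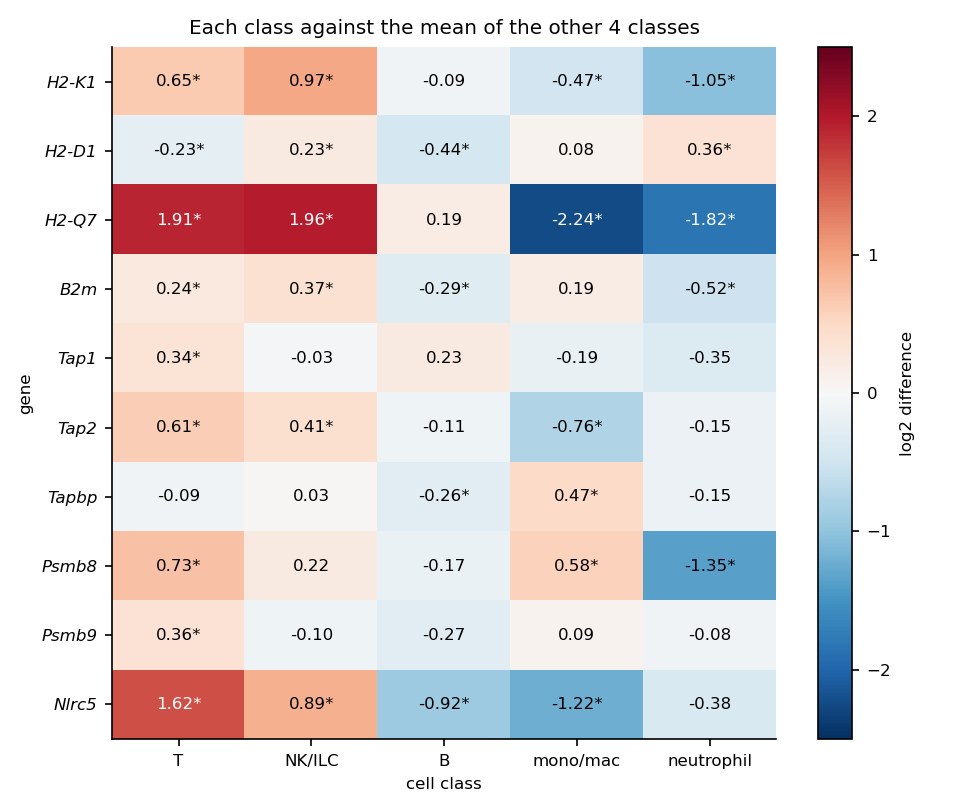
The log2 difference of each gene (rows) in each cell class (columns) against the mean of the other 4 classes, from 1 edgeR fit over 20 class sums with library as a block. Numbers are the log2 differences, asterisks mark an adjusted p below 0.05, and red is higher. H2-Q7 spans the widest range, 1.96 to -2.24, while Psmb9 and Tapbp stay within 0.5 of 0.

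B2m, the light chain of all these heavy chains, had 3210 and 3339 CPM in NK or ILC of KO and 3463 and 3433 CPM in those of Control. It was lowest in neutrophils, at 1464 and 1283 CPM in KO and 1914 and 1465 CPM in Control. Its range over classes was narrower than that of H2-K1 or H2-Q7: the log2 difference from the mean of the other classes ran from 0.37 ± 0.09 in NK or ILC to -0.52 ± 0.10 in neutrophils, and only the step of monocytes or macrophages over B cells was called along its order. The call in T cells (0.24 ± 0.09, adjusted p = 0.0200) did not pass without Control library 1 (0.24, adjusted p = 0.0652) or without Cyr61 KO library 2 (0.24, adjusted p = 0.0633).

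The loading machinery split. Tap2 was higher in T cells (log2 0.61 ± 0.11) and NK or ILC (0.41 ± 0.15) and lower in monocytes or macrophages (-0.76 ± 0.17), where it held 51.3 and 61.1 CPM in KO and 53.4 and 32.6 CPM in Control. In T cells Tap2 had 103 and 100.2 CPM in KO and 93.2 and 96.4 CPM in Control. Tapbp went the other way, with 226 and 281 CPM in monocytes or macrophages of KO and 228 and 177 CPM in those of Control, a log2 difference of 0.47 ± 0.11 from the other classes, and it was lower in B cells (-0.26 ± 0.11). Tap1 was higher in T cells only (0.34 ± 0.11), and its levels in T cells, NK or ILC and B cells ranged from 72.5 to 110 CPM with no called step between them. The call of Tap2 in NK or ILC was lost without Control library 2 (adjusted p = 0.0704) and without Cyr61 KO library 2 (adjusted p = 0.0825), and that of Tapbp in B cells under several settings.

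Of the immunoproteasome subunits, Psmb8 (LMP7) was higher in T cells (log2 0.73 ± 0.09, adjusted p = 8.85e-08) and in monocytes or macrophages (0.58 ± 0.10, adjusted p = 1.31e-05), and lower in neutrophils (-1.35 ± 0.16, adjusted p = 3.45e-08). Neutrophils held 77.1 and 118 CPM in KO and 89.3 and 103 CPM in Control, under every library of the other tested classes. Psmb9 (LMP2) varied less, and only its higher level in T cells was called (0.36 ± 0.12). Set against Psmb5, the constitutive subunit that Psmb8 replaces, Psmb8 made up 79.7 ± 2.6% of the UMIs of both in T cells, 75.3 ± 1.3% in B cells, 69.8 ± 2.3% in monocytes or macrophages and 64.7 ± 2.9% in neutrophils (SD, 4 libraries). The neutrophil share rested on 14 and 16 UMIs of both genes in KO and 14 and 60 in Control. Its exact binomial intervals were 35.1 to 87.2% and 41.3 to 89.0% in KO. In Control they were 35.1 to 87.2% and 48.2 to 73.9%, at the level used for H2-K1. Only that of Control library 2 lay below the T cell mean, and all included the mean of monocytes or macrophages. Psmb5 itself was higher in monocytes or macrophages (0.79 ± 0.11) and showed no called difference in T cells (-0.01 ± 0.10).

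Nlrc5, which drives class I promoters, was higher in T cells and NK or ILC. T cells had 78.4 and 75.7 CPM in KO and 85.0 and 82.0 CPM in Control. NK or ILC had 67.9 and 71.0 CPM in KO and 58.4 and 51.4 CPM in Control. B cells held only 26.1 and 12.6 CPM in KO and 13.9 and 21.65 CPM in Control, and monocytes or macrophages 21.98 and 18.2 CPM in KO and 19.4 and 12.9 CPM in Control. The first 2 of these classes did not overlap with the other 2. Nlrc5 was higher in T cells (log2 1.62 ± 0.14, adjusted p = 3.31e-11) and NK or ILC (0.89 ± 0.20), with a called step between them, and lower in B cells (-0.92 ± 0.21) and monocytes or macrophages (-1.22 ± 0.27). In neutrophils 15 UMIs in all allowed no reading.

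Counted over the 10 genes, 8 were higher and 1 lower in T cells, 6 higher and 0 lower in NK or ILC, 0 higher and 4 lower in B cells, 2 higher and 4 lower in monocytes or macrophages, and 1 higher and 4 lower in neutrophils. Of all 8236 genes in that fit, 35.6% were higher and 23.2% lower in T cells, 23.9% and 18.2% in NK or ILC, 36.9% and 23.7% in B cells, 34.0% and 20.9% in monocytes or macrophages, and 22.6% and 28.3% in neutrophils. The median log2 difference of the 10 genes was 0.49 in T cells, 0.30 in NK or ILC, -0.22 in B cells, -0.05 in monocytes or macrophages and -0.36 in neutrophils. Over all genes it was 0.14, 0.11, 0.17, 0.12 and -0.40 in the same order of classes. The neutrophil median thus lay at that of all genes. Calprotectin (S100a8 and S100a9) alone took 169251 to 232565 CPM of the neutrophil sums, which lowers the CPM of every other gene there.

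**Figure D3:**
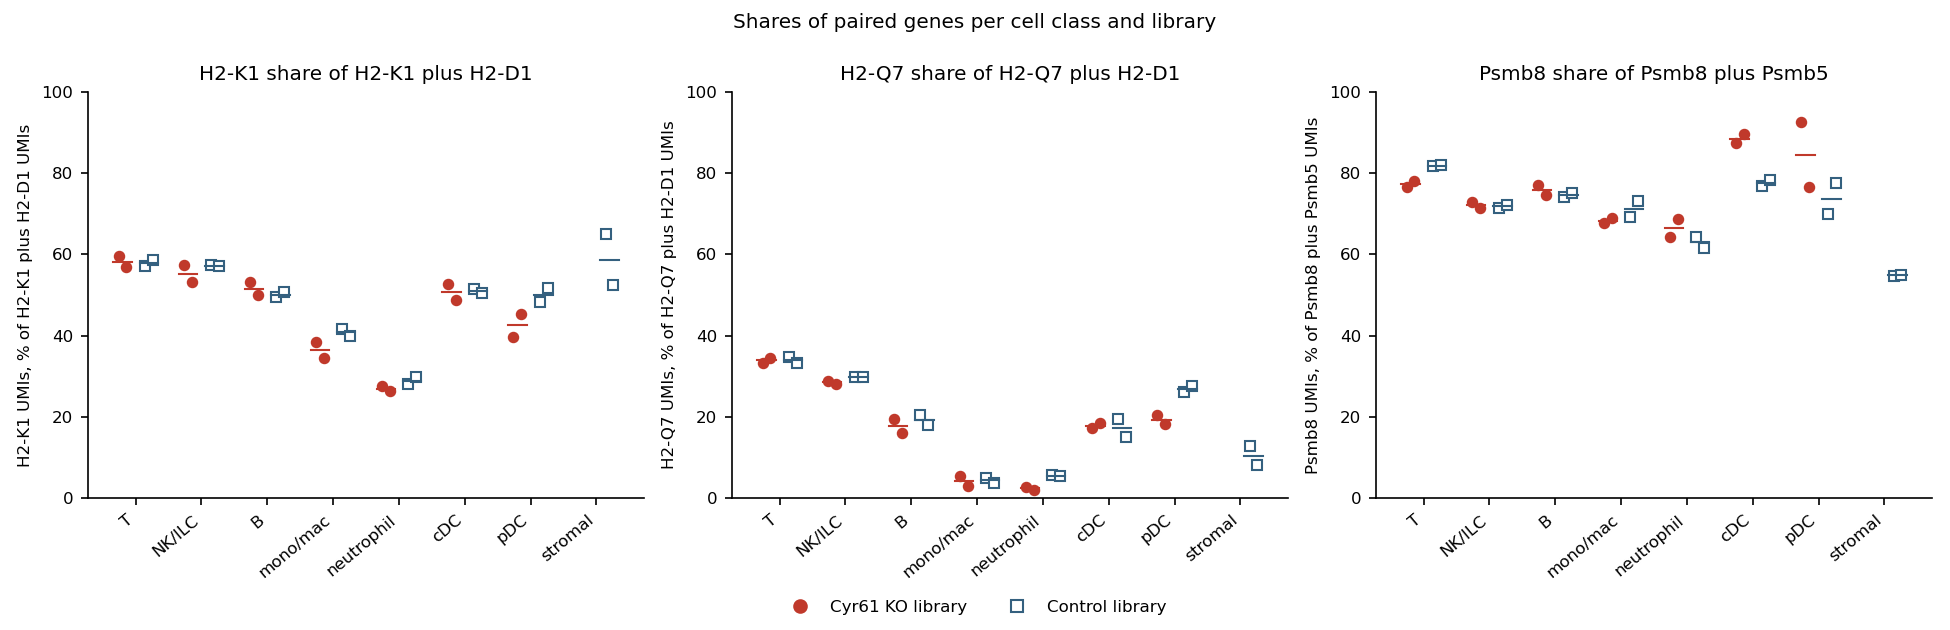
Share of H2-K1 in H2-K1 plus H2-D1 UMIs, of H2-Q7 in H2-Q7 plus H2-D1 UMIs and of Psmb8 in Psmb8 plus Psmb5 UMIs, in percent, by cell class. Filled circles are Cyr61 KO libraries, open squares Control libraries and lines group means, with conventional (cDC) and plasmacytoid (pDC) dendritic and stromal cells added though they were too few to test. The H2-K1 share falls to 27.9% and the H2-Q7 share to 3.90% in neutrophils, and the Psmb8 share is lowest in stromal cells.

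Classes with too few cells for a test are given as values only. Conventional dendritic cells, known for presenting outside antigens on class I, had 14 and 9 cells in KO and 40 and 38 in Control. Their Psmb8 stood at 659 and 810 CPM in KO and 667 and 695 CPM in Control, above every library of the 5 tested classes. Their Tap1, from only 9 and 9 UMIs in KO and 21 and 27 in Control, also lay above all of those. It stood at 283 and 280 CPM in KO and 209 and 235 CPM in Control. Their Psmb9 was 345 and 312 CPM in KO and 418 and 582 CPM in Control. Stromal cells, found in Control alone (272 and 56 cells, against 0 and 0 in KO), combined high H2-K1 (2140 and 1638 CPM) with almost no Nlrc5 (1.54 and 3.20 CPM). Their Psmb8 share was 54.7% and 55.0%, the lowest of the classes shown, and their Tap1 stood at 26.1 and 22.4 CPM. Hepatocytes, the main cell of the liver, were caught as 20 and 12 cells in KO and 1 and 5 in Control, too few for a level of any of the 10 genes.

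The 10 genes did not vary as 1 block over the 20 class sums. As a description over points that share libraries and depth, Pearson's r of log2 CPM was 0.943 between H2-K1 and H2-Q7, 0.793 between B2m and H2-K1, 0.760 between H2-K1 and Nlrc5 and 0.759 between H2-Q7 and Nlrc5. For H2-D1 r ran from -0.341 with Tap1 to 0.365 with Tapbp, and was -0.148 with H2-K1, -0.225 with H2-Q7 and 0.152 with B2m. Tapbp had an r of 0.122 with H2-K1, -0.132 with H2-Q7 and 0.597 with B2m. The genes outside the pathway list whose profile was most like the mean of the 10 genes were Rtl8a (r = 0.924), Sec11a (0.910), Rora (0.909), Dnajc3 (0.903) and Prkch (0.903), over the same 20 sums. Rora and Prkch are known from lymphocytes, and Prkch had 106 ± 14 CPM in T cells and 118 ± 23 CPM in NK or ILC, against 1.57 ± 0.35 CPM in B cells (SD, 4 libraries).

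The second question was whether class I genes differed between Cyr61 KO and Control livers within each class. None of the 10 genes was called in T cells, NK or ILC, B cells or monocytes or macrophages by edgeR, and none of the 7 that passed the filter on low counts in neutrophils. DESeq2 called 0 as well. At an unadjusted p below 0.05 there were 2 in T cells, where 14.7% of all genes passed that mark, and 1 each in NK or ILC (12.3%), B cells (11.8%), monocytes or macrophages (13.5%) and neutrophils (5.92%). With the adjusted p, 0.368% of the 11134 genes tested in T cells were lower and 0.171% higher in KO, 0.358% and 0.301% in NK or ILC, 0.384% and 0.101% in B cells, 2.83% and 0.998% in monocytes or macrophages, and 0% and 0% in neutrophils. Since the labels do not tie libraries to separate animals, these p-values measure only the spread between libraries, n = 2 per group.

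**Figure D4:**
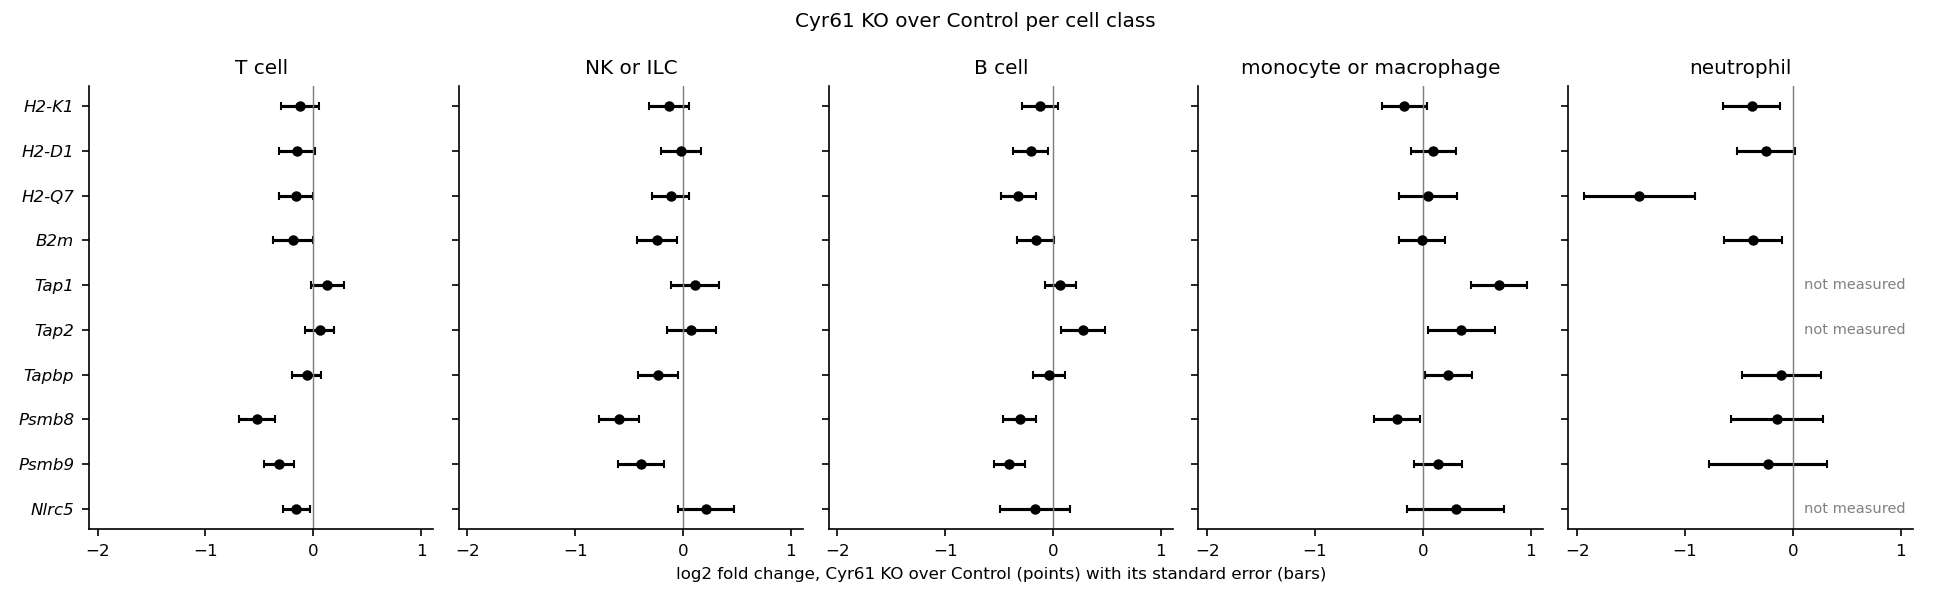
Log2 fold change of each gene, Cyr61 KO over Control, in the 5 tested cell classes (points), with its standard error (bars), from 1 edgeR fit per class on 2 libraries per group. Psmb8 lies below 0 in all 5 classes and Tap1 in monocytes or macrophages at 0.71, but no point passed at an adjusted p below 0.05.

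Psmb8, the immunoproteasome subunit, had a negative estimate in all 5 classes. T cells had 261 and 321 CPM in KO and 389 and 423 CPM in Control, a log2 fold change of -0.52 ± 0.17 (adjusted p = 0.194). NK or ILC had 235 and 312 CPM in KO and 331 and 394 CPM in Control (-0.59 ± 0.19, adjusted p = 0.176). In both classes each KO library lay under each Control library. B cells (-0.31 ± 0.15), monocytes or macrophages (-0.24 ± 0.21) and neutrophils (-0.15 ± 0.43) had estimates of the same sign with groups that overlapped. Without Control library 1 the call passed in T cells (-0.63, adjusted p = 0.00550) and in NK or ILC (-0.70, adjusted p = 0.0477), in a fit where the lone Control library is assumed to vary like the KO libraries. In those fits 498 genes were called in T cells, against 60 with all libraries, and 125 in NK or ILC, against 46.

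The T cell gate was divided by Cd4, Cd8a and Cd8b1. In CD8 T cells Psmb8 had 232 and 303 CPM in KO and 418 and 427 CPM in Control (log2 -0.69 ± 0.18, adjusted p = 0.145), and in CD4 T cells 269 and 341 CPM in KO and 338 and 434 CPM in Control (-0.40 ± 0.23, adjusted p = 0.695). The groups were apart in CD8 and overlapped in CD4 T cells, and the difference between both subsets was not tested. In CD8 T cells the call passed without Control library 1 (-0.75, adjusted p = 0.0196) and without Control library 2 (-0.63, adjusted p = 0.0216), in fits that called 244 and 639 genes, against 22 with all libraries. Of all genes tested there, 0.101% were lower and 0.121% higher in CD8 and 0.215% and 0.0143% in CD4 T cells. Psmb9 in CD8 T cells had 148 and 154 CPM in KO and 209 and 209 CPM in Control (-0.50 ± 0.16, adjusted p = 0.203).

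Relative to its constitutive counterpart, Psmb8 was a lower share in T cells of KO. It made up 76.7% (exact binomial 95% interval 74.9 to 78.5%) and 78.2% (76.7 to 79.6%) of Psmb8 plus Psmb5 UMIs in KO and 81.8% (79.4 to 84.0%) and 82.0% (80.8 to 83.1%) in Control. These intervals cover counting error only, and an exact two-sided permutation test of 2 against 2 libraries cannot go below p = 0.333. In NK or ILC, where the estimate for Psmb8 was -0.59, the share was 72.8% and 71.5% in KO and 71.6% and 72.1% in Control, and Psmb5 itself had a log2 fold change of -0.61 ± 0.22 (adjusted p = 0.252). In B cells the share was 77.1% and 74.6% in KO and 74.2% and 75.2% in Control. The groups overlapped in both of these classes, and in neutrophils. Monocytes or macrophages also had a lower share in KO, 67.8% and 69.0% against 69.3% and 73.1% in Control. Conventional dendritic cells went the other way, with 87.5% and 89.7% in KO and 77.0% and 78.4% in Control. Their KO shares rested on 24 and 29 UMIs of both genes. Psmb9 and Psmb10, another immunoproteasome subunit, were set against the constitutive subunits Psmb6 and Psmb7. In T cells the Psmb9 share was 64.6% and 63.0% in KO and 68.5% and 64.2% in Control. The Psmb10 share was 70.6% and 70.4% in KO and 68.8% and 74.6% in Control, and the groups overlapped in both pairs. In CD8 T cells the Psmb9 share was lower in KO, 63.0% and 63.7% against 67.7% and 67.3% in Control. Over all genes, both KO libraries lay under both Control libraries in CPM for 18.7% of those tested in T cells and above them for 27.5%. Among the 10 members 6 lay under (H2-K1, H2-D1, B2m, Psmb8, Psmb9 and Nlrc5), 2 above (Tap1 and Tap2) and 2 overlapped.

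Psmb9 pointed the same way in T and B cells without a call, while its groups overlapped in NK or ILC. T cells had 158.2 and 156 CPM in KO and 190 and 192 CPM in Control (log2 -0.32 ± 0.14, adjusted p = 0.322). B cells had 120 and 105 CPM in KO and 122 and 144 CPM in Control (-0.41 ± 0.14, adjusted p = 0.268). In monocytes or macrophages it was 164 and 170 CPM in KO and 131 and 150 CPM in Control, above in both KO libraries (0.14 ± 0.22, adjusted p = 0.863).

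Tap1 differed most in monocytes or macrophages. It held 103 and 89.2 CPM in KO and 50.1 and 58.4 CPM in Control, groups that did not overlap, with a log2 fold change of 0.71 ± 0.26 (adjusted p = 0.148). The make-up of this gate differed between groups: cells with C1q genes, known from resident macrophages, were 1 and 1 in KO and 62 and 33 in Control, and there Tap1 had 0 and 0 UMIs in KO and stood at 16.5 and 30.6 CPM in Control. Cells of the classical monocyte subgate (Chil3, F13a1, Ccr2) were 67.1% and 66.1% of the gate in KO and 29.1% and 43.0% in Control. Within that subgate Tap1 had 105 and 81.6 CPM in KO and 46.5 and 63.9 CPM in Control (0.55 ± 0.31, adjusted p = 0.489), so that the estimate was smaller. The groups were still apart in CPM, but on few counts, 57 and 39 UMIs in KO and 9 and 50 in Control. Of the genes tested in the subgate 0.692% were lower and 0.206% higher in KO. Tapbp there had 247 and 262 CPM in KO and 165 and 180 CPM in Control (0.41 ± 0.24, adjusted p = 0.506).

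The heavy chains and B2m gave small estimates in every class but neutrophils. H2-K1 ranged from -0.12 ± 0.18 in T cells to -0.17 ± 0.21 in monocytes or macrophages over the 4 larger classes, and H2-D1 from -0.21 ± 0.16 in B cells to 0.10 ± 0.21 in monocytes or macrophages. B2m had 2450 and 2499 CPM in T cells of KO and 2908 and 2606 CPM in those of Control (-0.19 ± 0.18, adjusted p = 0.686). H2-Q7 in neutrophils had 51.4 and 32.1 CPM in KO and 129 and 97.1 CPM in Control (-1.42 ± 0.51, adjusted p = 0.70), but these were 6 and 3 UMIs in KO and 13 and 35 UMIs in Control. Nlrc5 in the same cells had 1 and 0 UMIs in KO and 6 and 8 UMIs in Control and was not tested. Over the members, the median log2 fold change was -0.15 in T cells, -0.12 in NK or ILC, -0.16 in B cells, 0.12 in monocytes or macrophages and -0.25 in neutrophils, against medians over all genes between -0.01 and 0.00.

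Both KO libraries lay under both Control libraries for 2 members in NK or ILC (B2m and Psmb8), where 12.4% of all genes did, and above for 2 (Tap1 and Nlrc5), where 34.5% did. In B cells it was 2 under (H2-D1 and Psmb9; 12.4% of all genes) and 2 above (Tap1 and Tap2; 34.5%). In monocytes or macrophages it was 1 under (H2-K1; 15.8%) and 4 above (H2-D1, B2m, Tap1 and Psmb9; 28.0%), and in neutrophils 4 under (H2-K1, H2-Q7, B2m and the untested Nlrc5; 13.4%) and 0 above (22.6%). Tap1 was thus above in KO in T cells, NK or ILC, B cells and monocytes or macrophages, a description of sums from the same 4 libraries, and in T cells Cyr61 KO library 2 and Control library 2 were both at 93.7 CPM. These counts are in CPM, and the fits scale libraries by TMM, so that B2m in monocytes or macrophages lay above in CPM with a log2 fold change of -0.01 ± 0.21.

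Some RNA from other cells differed between the groups in the same sums, though not in every class. Calprotectin, a neutrophil product, had 21.1 and 8.48 CPM in T cells of KO and 102 and 141 CPM in those of Control, and 32.8 and 17.5 CPM in NK or ILC of KO and 97.3 and 121 CPM in those of Control. Haemoglobin stood at 3999 and 4583 CPM in NK or ILC of KO and at 92.4 and 6.63 CPM in those of Control. In T cells it was 750 and 566 CPM in KO and 1413 and 28.8 CPM in Control, groups that overlapped. The part of these transcripts in the Psmb8 values was not tested. With hepatocyte, haemoglobin and immunoglobulin genes left out, and also with the calprotectin genes left out, the count of called members was 0 in each of the 5 classes.

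Whether the KO effect of a class differed from the mean KO effect of the other classes was tested in the joint fit of 20 sums. None of the 10 genes was called in any class. Of all 8236 genes, 0.0364% were lower and 0.146% higher in T cells, 0.0121% and 0.0607% in NK or ILC, 0% and 0.0121% in B cells, 0.134% and 0.158% in monocytes or macrophages, and 0.0486% and 0.0486% in neutrophils. The smallest p belonged to Tap1 in monocytes or macrophages, with a difference of 0.82 ± 0.25 (unadjusted p = 0.00251 and adjusted p = 0.203 in edgeR, beside a median of 0.12 over all genes). H2-Q7 in neutrophils came next at -1.52 ± 0.52 (adjusted p = 0.360). For Psmb8 the differences ran from -0.22 ± 0.18 in NK or ILC to 0.19 ± 0.17 in monocytes or macrophages, and none was called.

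A list of 38 further class I pathway genes was read from the same fits. Between KO and Control 0 of them were called in any class by edgeR. At an unadjusted p below 0.05 in edgeR, 2 of 35 tested were lower and 2 higher in T cells, 2 and 3 of 31 in NK or ILC, 7 and 1 of 35 in B cells, 1 and 1 of 28 in monocytes or macrophages, and 0 and 1 of 8 in neutrophils. Of all genes, both directions together, 14.7% passed that mark in T cells, 12.3% in NK or ILC and 11.8% in B cells. It was 13.5% in monocytes or macrophages and 5.92% in neutrophils. Whether the list departs from these shares was not tested. The gene with the smallest p in each class is given. In T cells it was the interferon-induced factor Irf1, with 249 and 216 CPM in KO and 170 and 156.6 CPM in Control (log2 0.48 ± 0.15, adjusted p = 0.179). In NK or ILC it was Psmb10, the third immunoproteasome subunit, with 152 and 154 CPM in KO and 204 and 196 CPM in Control (-0.54 ± 0.18, adjusted p = 0.212). In B cells it was the disulphide isomerase Pdia3, with 85.5 and 89.8 CPM in KO and 102 and 117 CPM in Control (-0.49 ± 0.13, adjusted p = 0.142). In monocytes or macrophages it was the chaperone Calr, with 226 and 238 CPM in KO and 369 and 316 CPM in Control (-0.66 ± 0.21, adjusted p = 0.0774). In each of these 4 pairs the groups did not overlap, which adds no support, since the genes were picked by their p. Of all genes, 27.5% lay higher in both KO libraries in T cells. The shares that lay lower were 12.4% in NK or ILC, 12.4% in B cells and 15.8% in monocytes or macrophages. In neutrophils the gene with the smallest p was H2-Q10 (0.71 ± 0.31, adjusted p = 0.786).

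Between classes, many of the list's genes differed. Of all 8236 genes, 35.6% were higher in T cells and 34.0% in monocytes or macrophages, while 23.7% were lower in B cells and 28.3% in neutrophils. The median log2 difference of all genes in neutrophils was -0.40. Whether the list departs from these values was not tested. Among the 3 other immunoproteasome and PA28 genes, all were higher in T cells and in monocytes or macrophages and all lower in B cells and in neutrophils. Psmb10 was higher in monocytes or macrophages (log2 1.07 ± 0.14) and lower in neutrophils (-2.24 ± 0.31), and the PA28 subunit Psme2 higher in T cells (0.72 ± 0.09) and lower in B cells (-0.91 ± 0.11). The 3 constitutive subunits were all higher in monocytes or macrophages, such as Psmb6 (0.99 ± 0.13) and Psmb7 (0.87 ± 0.15), and 0 of 3 were called in T cells. Of the 5 loading genes, 3 were lower in neutrophils, the chaperones Canx (-1.96 ± 0.22) and Calr (-1.80 ± 0.21) and the disulphide isomerase Pdia3 (-1.63 ± 0.21). Tapbpl, which edits peptides as tapasin does, was higher in T cells (1.09 ± 0.16).

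Other heavy chains split by class as well, with 8 of 12 in the fit. H2-Q10, known as a secreted heavy chain of hepatocytes, had 471 and 588 CPM in neutrophils of KO and 397 and 239 CPM in those of Control, against 5.86 to 18.2 CPM in monocytes or macrophages. Its log2 difference in neutrophils was 3.90 ± 0.18 (adjusted p = 8.78e-18 in edgeR). The hepatocyte RNA genes summed to 0 and 32.1 CPM in neutrophils of KO and 169 and 13.9 CPM in those of Control. The sequence that H2-Q10 shares with other genes was not examined, and the source of its counts in neutrophils was not tested. H2-Q6 followed H2-Q7, higher in NK or ILC (2.10 ± 0.12) and lower in monocytes or macrophages (-2.62 ± 0.20). Of the 50-base words of H2-Q6, 35.9% occur in another gene, most often in Efr3a (21.5%), so its counts are less certain. For H2-Q7 the gene that shared most was H2-Q5 (5.76%). H2-M3, which presents formylated peptides, was higher in B cells (1.68 ± 0.15). Among interferon genes, Ifng was higher in NK or ILC (4.77 ± 0.20) and T cells (3.73 ± 0.20), and its receptor subunit Ifngr2 higher in monocytes or macrophages (2.98 ± 0.19) and neutrophils (2.88 ± 0.34), at 119 and 144 CPM in monocytes or macrophages of KO and 103 and 109 CPM in those of Control. Ifngr1, the other subunit, was lower in B cells (-1.94 ± 0.15), and Ifnar2, a type I interferon receptor subunit, higher in monocytes or macrophages (1.49 ± 0.11).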

How the data were processed

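The deposited values are UMI counts of genes in filtered barcodes, per the file headers, with no normalization. The submitters' processing notes name Cell Ranger 3.1.0 and the mm10 build. Per the labels' protocols, livers were kept frozen in serum with DMSO, thawed, digested and passed over a dead-cell removal column. Of the gene IDs, 99.6% matched GENCODE M21. Cells were kept with at least 500 UMIs, 250 genes and at most 25% mitochondrial UMIs. Scrublet (scanpy 1.11.5, expected rate 0.06) marked 0.014% and 1.66% of cells in KO libraries 1 and 2 and 0% and 0% in Control libraries 1 and 2, so that it had not worked in 3 of 4, and the highest scores were removed at 0.8% per 1000 barcodes in all 4. A cell joined a class with at least 2 of its markers and no other class above 0.25 of its marker UMIs.

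UMIs were summed per class and library and tested with edgeR 4.0.16 (TMM, filterByExpr, glmQLFit and glmQLFTest, R 4.3.3), 1 fit per class for KO against Control and 1 fit over 20 sums for classes and interactions, with Benjamini-Hochberg adjustment over all genes tested. Scripts were tested on simulated data. Alternatives were DESeq2 1.42.0, a fit without the filter on low counts, relative log expression scaling, a stricter gate, whole Leiden clusters, doublets kept, at least 1000 UMIs, at most 10% mitochondrial UMIs, hepatocyte, haemoglobin and immunoglobulin genes left out (also with calprotectin, added after seeing the data), a replicate block and each library left out. The members and lists were chosen with earlier results of these data known. Named were all 10 members, up to 4 genes of each pathway list by smallest p between classes, the 5 genes most alike and Ccn1. The pathway gene with the smallest p between KO and Control in each class was named by a rule chosen after the values were seen. No fold is given for genes at 0 UMIs in a group.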

Additional observations from a re-analysis of the deposited data

How the results depend on the processing

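Between Cyr61 KO and Control, the count of called members was 0 in the 5 tested classes, also under relative log expression size factors, no filter, the stricter gate, whole clusters, doublets kept, at least 1000 UMIs, at most 10% mitochondrial UMIs, DESeq2, and hepatocyte, haemoglobin and immunoglobulin genes left out, and, chosen after seeing the data, with calprotectin genes left out as well. Leaving out each library in turn gave 0 to 1 called members in T cells, 0 to 1 in NK or ILC and 0 to 1 in CD8 T cells, each time Psmb8, and 0 in B cells, monocytes or macrophages, neutrophils, CD4 T cells and the classical subgate. The replicate number as a block gave 1 member in T cells (Psmb8, log2 -0.52, adjusted p = 0.0384) and 0 in the other classes. That fit called 613 genes in all in T cells (60 without the block), 132 in NK or ILC (46) and 376 in B cells (48). Deviations of libraries of the same number correlated at 0.175 in T cells, 0.0891 in NK or ILC, 0.0806 in B cells, 0.0448 in monocytes or macrophages and -0.154 in neutrophils. The labels do not say that a number marks a shared animal, batch or day, so the block was not used in the report. The crossed pairing in neutrophils, chosen after seeing the data, called 20 genes and 0 members. Counts over all genes moved far more, from 60 in T cells to 9 without Cyr61 KO library 1 and 1122 without Control library 2, and from 48 in B cells to 3 without Control library 1. The cause was not tested. Between classes, B cells had 4 called members and 2 with no filter, and the other 4 classes stayed within 1.5 times of their counts under every alternative run. Of the single values between classes, 329 kept their call, 31 did not pass and 0 changed sign.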
